A study of Aspergillus terreus with 6 samples.

Results

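The genes described here are the annotated genes of Aspergillus terreus whose transcript level differed at least 4-fold, on a log2(CPM + 1) scale, between control libraries 1 and 3, with the mean of the other 4 libraries lying between these controls. There were 12 such genes, of 11680 features in the deposited tables, of which 10784 carry an annotated identifier and 7075 of these reached the required level. CPM is the count of a gene per 1000000 counts of its library, and L is used below for log2(CPM + 1). A gene was taken when its highest L was 3 or more, the absolute difference in L between controls 1 and 3 was 2 or more, and the mean L of control 2 and the 3 metal libraries lay between them. The members were therefore chosen by their values in all 6 libraries, and the difference between controls 1 and 3 is given as a description, with no test. The genes are called members 1 to 12, in the order of their identifier numbers. The files pair no identifier with a gene name or product, and 0 identifiers matched the gene table of strain NIH2624, so no function can be given and only 4 identifiers are printed.

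The study measured RNA from mycelia of the wild-type strain labelled AT2022, grown in fermentation medium at 32 °C and 180 rpm and collected on day 2. The metal group (n = 3) is labelled as treated with FeSO4·2H2O at 0.40 g/L and ZnSO4·2H2O at 0.25 g/L. The control group (n = 3) is labelled as untreated, with 0.15 g/L of the zinc salt and 0.16 g/L of the iron salt named after that word; whether its medium held these amounts is not stated. A treatment protocol shared by both groups mentions taurine. The labels do not call the replicates separate cultures, so the spread between them may be technical.

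Aspergillus terreus is a filamentous fungus known for making itaconic acid and, among its specialized metabolites, lovastatin. Genes for specialized metabolites in filamentous fungi often lie side by side and are switched on together, in a way that depends on nutrients and growth stage. Whether any of the 12 members belongs to such a pathway is not known here.

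Total counts ran from 32607821 to 35124387 in the metal libraries and from 25097838 to 31981700 in the controls. Control 2 stood apart from the other controls: at the same level limit, L differed by 2 or more in 4.23% of genes between controls 1 and 2 and in 4.44% between controls 2 and 3. Between controls 1 and 3 the share was 0.367%, or 26 genes. Within the metal group it was 0.0989% between metal 1 and metal 2, 0.0848% between metal 1 and metal 3 and 0.0707% between metal 2 and metal 3. Controls 1 and 3 were thus the nearest pair of controls, yet more genes differed 2 or more in L between them than within any pair of metal libraries. The median difference of control 1 minus control 3 over the 7075 genes was -0.10 in L.

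**Figure D1:**
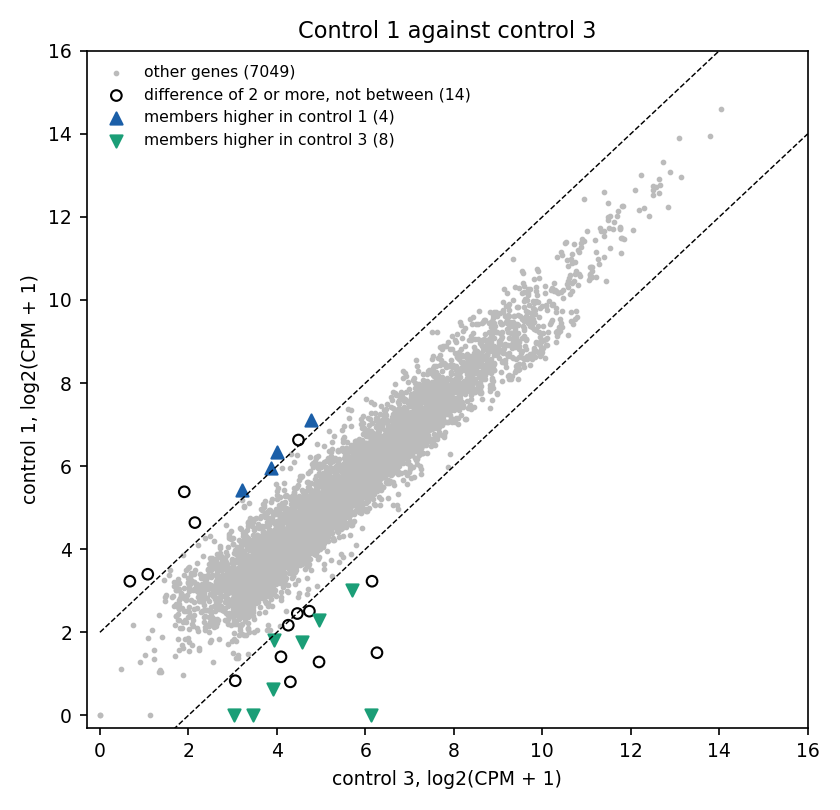
Level of each of the 7075 annotated genes with an L of 3 or more in any library, as log2(CPM + 1) in control 1 (vertical axis) and control 3 (horizontal axis). Dashed lines mark a difference of 2; blue triangles are the 4 members higher in control 1, green triangles the 8 members higher in control 3, and open circles the 14 genes past the lines whose mean in the other 4 libraries was not between the controls. Members higher in control 3 reach down to 0 in control 1, while members higher in control 1 lie close to the line.

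Of the 26 genes past the difference, 9 were higher in control 1 (0.127% of the 7075) and 17 higher in control 3 (0.240%). The rule kept 12 (0.170%), of which 4 were higher in control 1 and 8 higher in control 3. With a highest L of 5 or more in place of 3, the split turned to 4 and 2. Of the 14 genes that the rule left out, 13 had a mean in the other 4 libraries below both controls and 1 above both. Among the members, differences ran from 2.07 to 2.34 in L for those higher in control 1 and from 2.10 to 6.13 for those higher in control 3. Among the genes left out, control 1 minus control 3 reached 3.48 in L in the first direction and -4.75 in the second. The rule used these differences, so nothing is read from their ranges. Just outside the limit, and otherwise meeting the rule, the nearest gene was at 1.99 for control 1 and at 1.91 for control 3. Between 1.5 and 2 there were 16 genes higher in control 1 and 12 higher in control 3, so control 3 was not the more frequent direction there. Per length, the highest FPKM in any library had a median of 49.0 in members higher in control 1, from 29.2 to 192.9. In members higher in control 3 the median was 14.5, from 2.79 to 161.8, and in all 7075 genes it was 26.1. The rule set a limit on the highest level, and 4 members higher in control 3 reached it in that library alone. Nothing is read from these medians. The length implied by counts and FPKM had a median of 1515 bases in the 12 members, from 315 to 2581, and 1839 bases in all 7075 genes.

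In all 12 members control 3 was the highest or the lowest of the 6 libraries. Control 1 was at the opposite end, ties counted, in 8. The rule bears on these counts: it set the mean of the other 4 libraries between the controls, and in 4 members, 7, 9, 10 and 12, control 3 alone reached the required L of 3, so that it had to be the highest. Nothing is read from them. On a scale where 0 is control 3 and 1 is control 1, the median position was 0.88 for metal 1, 0.56 for metal 2, 0.70 for metal 3 and 0.77 for control 2. All of these other 4 libraries lay nearer control 1 than control 3 in 6 members. They were divided in the other 6, and in 0 members did all 4 lie nearer control 3. The rule bears on these positions too, since it used the mean of these 4 libraries. Members 7, 10 and 12, among the first 6, reached an L of 3 only in control 3. Nothing is read from the positions, and the grouping only orders the description. The members are described below as those in which all of the other 4 libraries lay nearer control 1, those with no counts in control 1 and metal 1, and the rest.

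**Figure D2:**
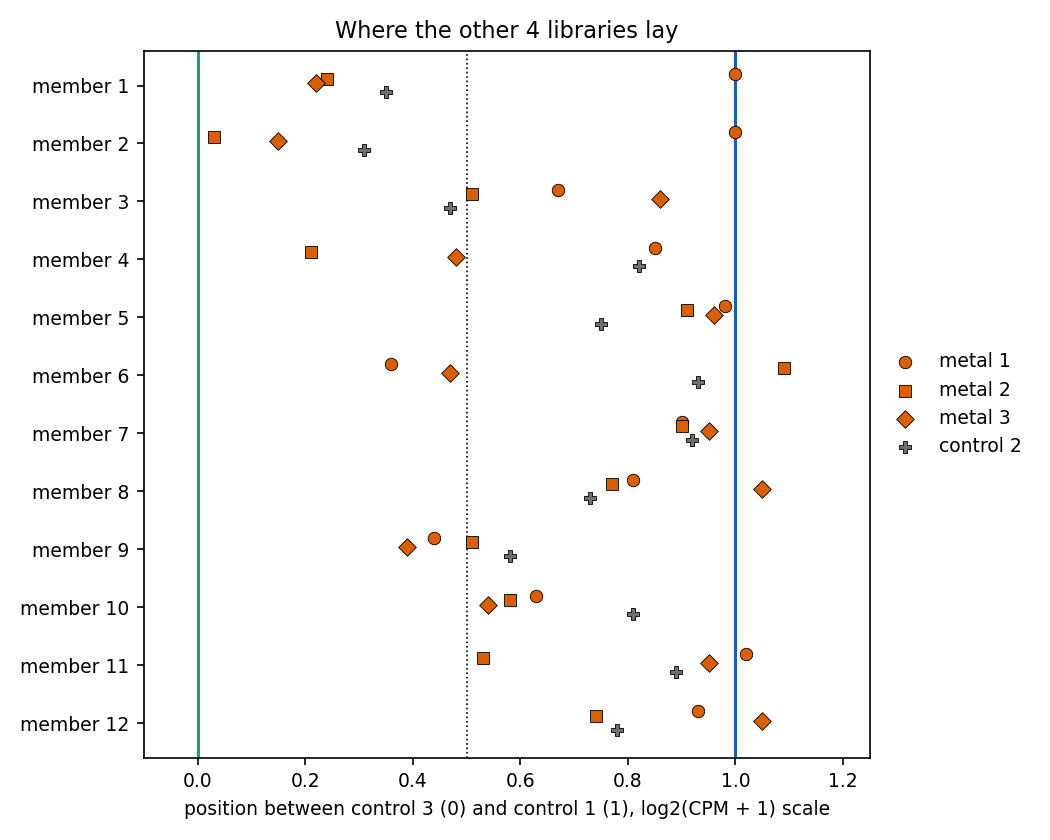
Position of metal libraries 1, 2 and 3 (orange) and control 2 (grey) in each of the 12 members, on a scale where control 3 is 0 (green line) and control 1 is 1 (blue line), computed from log2(CPM + 1). In members 5, 7, 8, 10, 11 and 12 all 4 points lie right of the dotted midline, and in members 1 and 2 metal 1 lies at 1 while the others lie left of the midline.

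Control 3 was the high library in 4 of the 6 members in which the other 4 libraries all lay nearer control 1. The clearest was member 7, Aterreus0G088730, printed because it had the largest difference among members higher in control 3 with 10 or more counts in every library. It had 31, 32 and 26 counts in metal libraries 1, 2 and 3 and 18, 26 and 351 counts in controls 1, 2 and 3. In CPM these were 0.938, 0.981 and 0.740 in the metal libraries and 0.563, 0.869 and 14.0 in the controls. Control 3 was 14.3-fold above the nearest other library, and the remaining 5 libraries all lay below 1 CPM. Control 1 was 3.26 lower than control 3 in L. The 3 other members of this kind, members 10, 11 and 12, were expressed in every library.

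Member 12 was at 4.54, 6.84 and 3.42 CPM in metal libraries 1, 2 and 3 and at 3.88, 6.28 and 29.7 CPM in controls 1, 2 and 3. Control 3 was 4.35-fold above the nearest other library, and metal 3 was the lowest. Member 11 was at 2.27, 7.39 and 2.79 CPM in the metal libraries and at 2.41, 3.18 and 22.6 CPM in controls 1, 2 and 3. Here metal 2 was also above the other metal libraries, at position 0.53 between the controls, and control 3 was 3.06-fold above it. Member 10 was at 5.08, 5.49 and 5.95 CPM in the metal libraries and at 2.53, 3.68 and 14.2 CPM in controls 1, 2 and 3. It differed from the others of this kind in that the metal libraries, which lay close together, were all above controls 1 and 2, at positions from 0.54 to 0.63. Members 10, 11 and 12 lie near the end of the numbering, with 19 numbers from member 10 to member 11 and 64 from member 11 to member 12.

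In the other 2 of these 6 members control 3 was the low library. Member 5, Aterreus0G074250, printed for the largest difference in this direction after that of member 6, had 2565, 2256 and 2616 counts in metal libraries 1, 2 and 3 and 2563, 1585 and 378 counts in controls 1, 2 and 3. In CPM these were 77.6, 69.2 and 74.5 in the metal libraries and 80.1, 53.0 and 15.1 in the controls. Control 1 was at the level of the metal libraries, and 5.32-fold above control 3. Member 8 was at 31.0, 29.1 and 45.7 CPM in the metal libraries and at 42.2, 27.5 and 8.21 CPM in controls 1, 2 and 3. In member 8 metal 3 was the highest library, above control 1, and every other library was at least 3.36-fold above control 3.

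Members 1 and 2 had no counts in control 1 and in metal 1, while each of the other 4 libraries held at least 127. Member 1, Aterreus0G000640, printed because it reached the highest level among members higher in control 3, had 0, 797 and 933 counts in metal libraries 1, 2 and 3 and 0, 450 and 1729 counts in controls 1, 2 and 3. In CPM it was at 0, 24.4 and 26.6 in the metal libraries and at 0, 15.0 and 68.9 in the controls. A count of 0 allows up to 3 counts, which is 0.0938 CPM in control 1 and 0.0908 CPM in metal 1, for counting error only. Member 1 was therefore at least 734-fold lower in control 1 than in control 3. Member 2 had 0, 305 and 234 counts in the metal libraries and 0, 127 and 253 counts in controls 1, 2 and 3, and was at least 107-fold lower in control 1 than in control 3. In both members the libraries fell into a silent and an expressed set that cut across the labelled groups, with 1 metal library and 1 control in the silent set.

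Both silent libraries carry replicate number 1, and the labels do not say what the number stands for. A search of all 11680 features for 1 count or fewer in metal 1 and control 1 and 20 or more in each of the other 4 libraries found 3 features. They were members 1 and 2 and an annotated gene, found after its values were seen, with 0, 90 and 131 counts in metal libraries 1, 2 and 3 and 0, 75 and 154 counts in controls 1, 2 and 3. This gene was left out of the members by its highest L of 2.84. Among the 14 other pairs of libraries, 13 had 0 features of this kind and 1 had 1 feature. The genes numbered just before and after member 1 were expressed in the silent libraries. The gene before it was at 175.6, 160.2 and 230.3 CPM in metal libraries 1, 2 and 3 and at 368.3, 147.4 and 316.4 CPM in controls 1, 2 and 3. The gene after it was at 13.4, 13.1 and 12.5 CPM in the metal libraries and at 26.8, 7.52 and 28.4 CPM in the controls, and the gene after member 2 was at 34.5, 49.7 and 33.0 CPM in the metal libraries and at 33.7, 32.3 and 43.5 CPM in the controls. The absence of counts was thus not shared by these neighbours.

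In the other 4 members the metal libraries and control 2 were divided between the sides of controls 1 and 3. Member 9 had no counts in control 1 alone, with 73, 59 and 91 counts in metal libraries 1, 2 and 3 and 0, 42 and 179 counts in controls 1, 2 and 3. It was 1 of 3 features with 0 counts in control 1 and 20 or more in every other library. The metal libraries and control 2 lay close to the midpoint, and control 1 was at least 76.0-fold lower than control 3. Member 4 was at 9.62, 34.2 and 20.3 CPM in the metal libraries and at 7.04, 10.3 and 51.0 CPM in controls 1, 2 and 3. Its metal libraries spanned much of the range between the controls, with metal 1 near control 1 and metal 2 nearer control 3. At an implied length of 315 bases it was the shortest member, and per length the most abundant of the members higher in control 3, at 161.8 FPKM in that library.

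Member 6, Aterreus0G088670, printed because it reached the highest level among members higher in control 1, had 1577, 5201 and 2014 counts in metal libraries 1, 2 and 3 and 4379, 3683 and 659 counts in controls 1, 2 and 3. In CPM it was at 47.7, 159.5 and 57.3 in the metal libraries and at 136.9, 123.1 and 26.3 in the controls. Metal 2 was the highest library and lay with controls 1 and 2, while metal 1 and metal 3 lay about midway to control 3. Control 1 was 5.21-fold above control 3. Member 3 was at 37.6, 29.3 and 49.8 CPM in the metal libraries and at 60.8, 27.6 and 13.7 CPM in controls 1, 2 and 3. With the smallest difference of all, 2.07 in L, it had the metal libraries between controls 1 and 2, and control 3 was 2.02-fold below control 2, the nearest library.

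**Figure D3:**
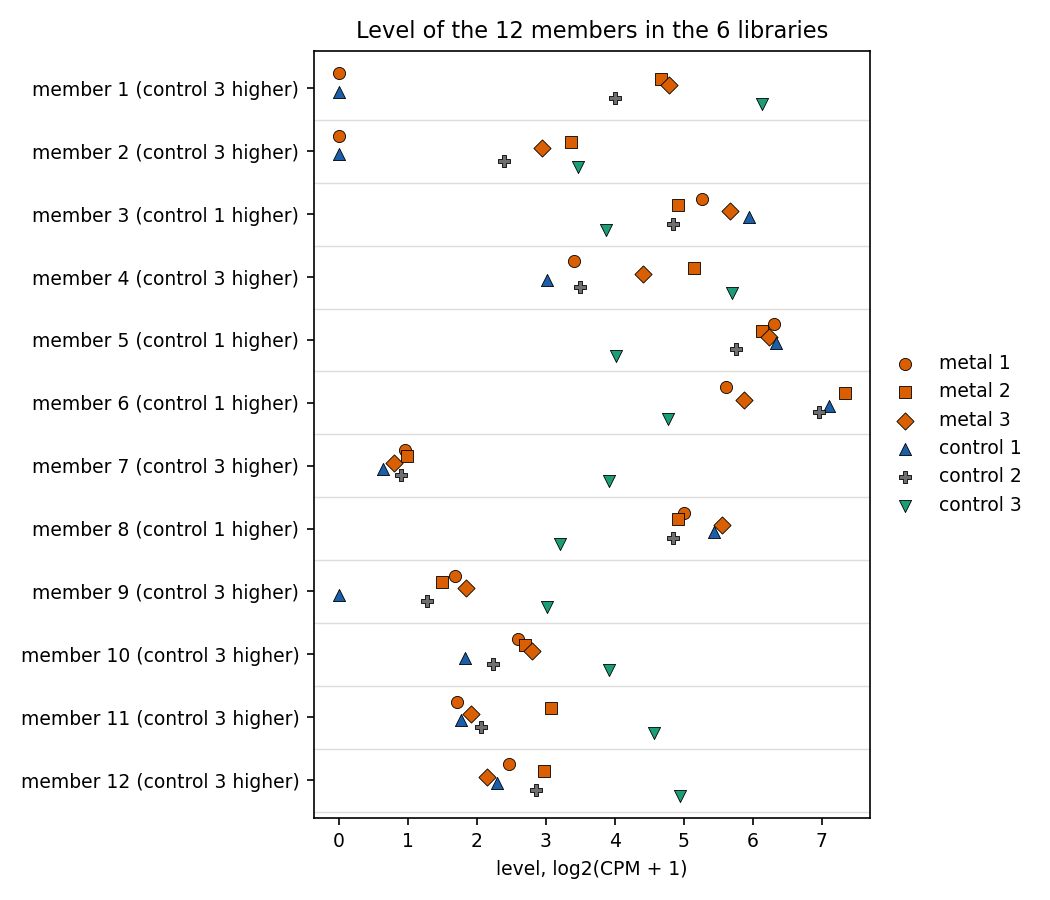
Level of each member as log2(CPM + 1) in metal libraries 1, 2 and 3 (orange), control 1 (blue), control 2 (grey) and control 3 (green), with the higher of controls 1 and 3 named beside it. Control 3 is the outermost point in every row, metal 1 and control 1 are both at 0 in members 1 and 2, and the other 5 libraries lie together far from control 3 in member 7.

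The rule did not use the spread among the metal libraries. The range of L over metal libraries 1, 2 and 3 had a median of 0.78 in the members, against 0.30 in all 7075 genes, and it was 1 or more in 5 of the 12 members, against 2.73% of all genes. These 5 were members 1, 2, 4, 6 and 11, with ranges of 4.78, 3.37, 1.73, 1.72 and 1.36. The range was under 0.40 in members 5, 7, 9 and 10, at 0.16, 0.19, 0.35 and 0.19. Of the 7 genes that differed by 2 or more between metal 1 and metal 2, and of the 6 between metal 1 and metal 3, members 1 and 2 were 2 in each case, since their counts were 0 in metal 1. Genes of low level vary more by counting error. The members' mean L over the libraries had a median of 3.10, against 5.17 in all genes. Metal libraries 1, 2 and 3 held 0, 797 and 933 counts in member 1 and 0, 305 and 234 in member 2. They held 318, 1114 and 712 in member 4, 1577, 5201 and 2014 in member 6 and 75, 241 and 98 in member 11. The part of level or counting error in these ranges was not tested.

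Consecutive identifier numbers, which run from 1 to 10784 with 0 missing, held no run of members. There were 0 runs of 2 or more consecutive members in either direction, and the nearest members, 6 and 7, were 6 numbers apart and opposite in direction. The rule kept only 12 genes, 0.170% of the 7075 at the level limit. With so few, adjacent numbers would be rare, and nothing is read from the lack of runs. The other gaps between members ran from 19 to 3962 numbers. A run was present among the 14 genes left out by the rule: 3 consecutive genes were all higher in control 3. They lay at 0 to 0.696, 0.399 to 1.20 and 0.484 to 0.712 CPM in metal libraries 1, 2 and 3, at 0.750 to 1.84 CPM in control 1, at 0 CPM in control 2 and at 18.8 to 75.7 CPM in control 3. They missed the rule because the mean of the other 4 libraries was below control 1, so the lack of runs holds for the rule as stated and not for all genes unlike between these controls.

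Neighbours were described for each direction. Of the genes 1 number away from a member higher in control 1, 8 reached the level limit, and 3 of these were themselves higher in control 1 by 1 or more in L, a difference found in 3.63% of all 7075 genes. These 3 lay beside members 6 and 8. Over all 8, the median difference of control 1 minus control 3 was 0.88, with a range from -0.67 to 1.56. Around members higher in control 3, 7 genes reached the level limit and 0 were higher in control 3 by 1 or more, against 3.02% of all genes. Their median difference was -0.04, with a range from -0.82 to 0.29. Neighbours share members and are few, and neither the counts nor their difference between the directions was tested. The files hold no gene positions or strand setting, so reads of overlapping neighbours cannot be told apart.

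Around member 8, 3 genes were higher in control 1 than in control 3 by more than 1 in L. The gene before it was at 530.2, 470.0 and 635.9 CPM in metal libraries 1, 2 and 3 and at 576.8, 406.0 and 268.8 CPM in controls 1, 2 and 3. The gene after it was at 7.90, 4.42 and 7.86 CPM in the metal libraries and at 10.9, 4.08 and 3.03 CPM in the controls. The gene 2 numbers after it was at 5.11, 3.13 and 5.27 CPM in the metal libraries and at 11.6, 2.21 and 4.94 CPM in the controls. These neighbours differed by 1.10, 1.56 and 1.08 in L between controls 1 and 3, against 2.23 for member 8 itself. In the first of them control 3 was the lowest library and metal 3 the highest, as in member 8. In both genes after it control 1 was the highest library, and in the second of them control 3 was above metal 2 and control 2.

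Member 6 lay between unlike neighbours. The gene before it was at 4.42, 6.81 and 4.36 CPM in metal libraries 1, 2 and 3 and at 7.72, 5.05 and 2.19 CPM in controls 1, 2 and 3. The gene 2 numbers before it was among the abundant genes, at 1955.0, 3021.3 and 1982.8 CPM in the metal libraries and at 1669.8, 2116.5 and 745.0 CPM in the controls. In both, metal 2 was above the other metal libraries and control 3 was the lowest library, as in member 6. Control 1, below only metal 2 in member 6, was the highest library in the gene before it. In the gene 2 numbers before it, control 1 was below control 2 and all metal libraries. The gene after it was at 0.424, 0.859 and 0.883 CPM in the metal libraries and at 10.9, 0.134 and 9.04 CPM in controls 1, 2 and 3. That pattern, high in controls 1 and 3 and low in the other 4 libraries, is unlike that of member 6.

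**Figure D4:**
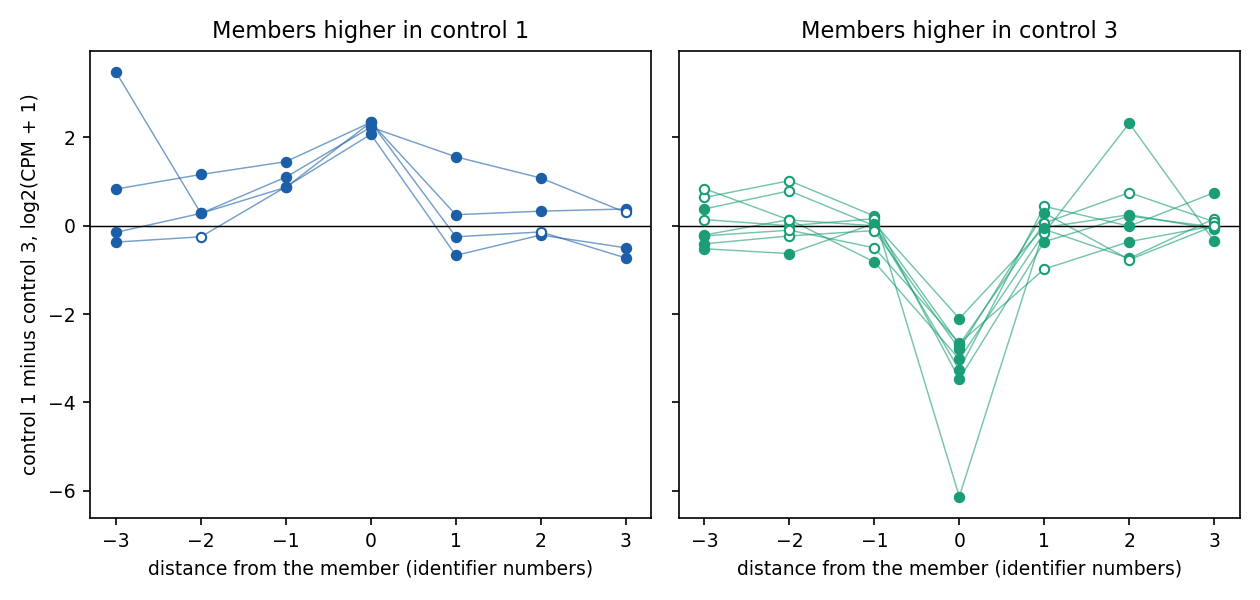
Difference of control 1 minus control 3 in log2(CPM + 1) for each member (distance 0) and the genes up to 3 identifier numbers away, with 1 line per member; filled points reached an L of 3 in a library and open points did not. On the left, around the 4 members higher in control 1, all genes 1 number before are above 0. The genes 1 number after are at -0.67, -0.25, 0.25 and 1.56 for members 3, 5, 6 and 8. The gene 3 numbers before member 5 is at 3.48, above that member at 2.34. On the right, the 8 members higher in control 3 stand apart from neighbours that mostly lie near 0. The neighbour farthest from 0 there, 2 numbers after member 9, is at 2.32.

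The labelled comparison of metal with control asks whether the members followed the salts. The rule used all 6 libraries, so nothing about the members is read from these counts. The quasi-likelihood test of edgeR, adjusted by the Benjamini-Hochberg method over 9698 features, called 0 genes higher (0%) and 0 lower (0%) in the metal group at an adjusted p under 0.05, with 835 features (8.61%) at an unadjusted p under 0.05. All 12 members were tested, 0 were called, and 0 had an unadjusted p under 0.05. Their log2 fold changes of metal over control ran from -2.45 to 0.60 with a median of -0.18, against -0.01 over all tested features. Their standard errors had a median of 0.74, against 0.28 over all tested features. Each edgeR standard error (SE) was derived as the absolute log2 fold change over the square root of the quasi-likelihood F statistic. DESeq2 gave an adjusted p to 10461 features and called 10 higher (0.0956%) and 136 lower (1.30%), with 0 among the 11 members that received one. Member 7 received neither an unadjusted nor an adjusted p from DESeq2. It had 351 counts in control 3 and from 18 to 32 in the other libraries.

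Member 7 had the largest change, with 0.887 ± 0.129 CPM in the metal libraries and 5.14 ± 7.66 CPM in the controls (SD, n = 3 each). Its fitted log2 change was -2.45 ± 1.15 (SE; edgeR adjusted p = 0.568). Without control 3 it was 0.29 (edgeR adjusted p = 0.899), and with the replicate number as a block it was -0.97. Member 5 had 73.8 ± 4.26 CPM in the metal libraries and 49.4 ± 32.7 CPM in the controls (SD, n = 3 each). Its log2 fold change was 0.60 ± 0.52 (SE; edgeR adjusted p = 0.664). Without control 3 it was 0.16, without control 1 it was 1.10, and with the block 0.88.

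Member 1 had 17.0 ± 14.8 CPM in the metal libraries and 28.0 ± 36.2 CPM in the controls (SD, n = 3 each). The fitted log2 change was -0.66 ± 1.87 (SE; edgeR adjusted p = 0.901). Member 6 had 88.2 ± 61.9 CPM in the metal libraries and 95.4 ± 60.3 CPM in the controls (SD, n = 3 each). The fitted log2 change was -0.11 ± 0.67 (SE; edgeR adjusted p = 0.958).

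**Figure D5:**
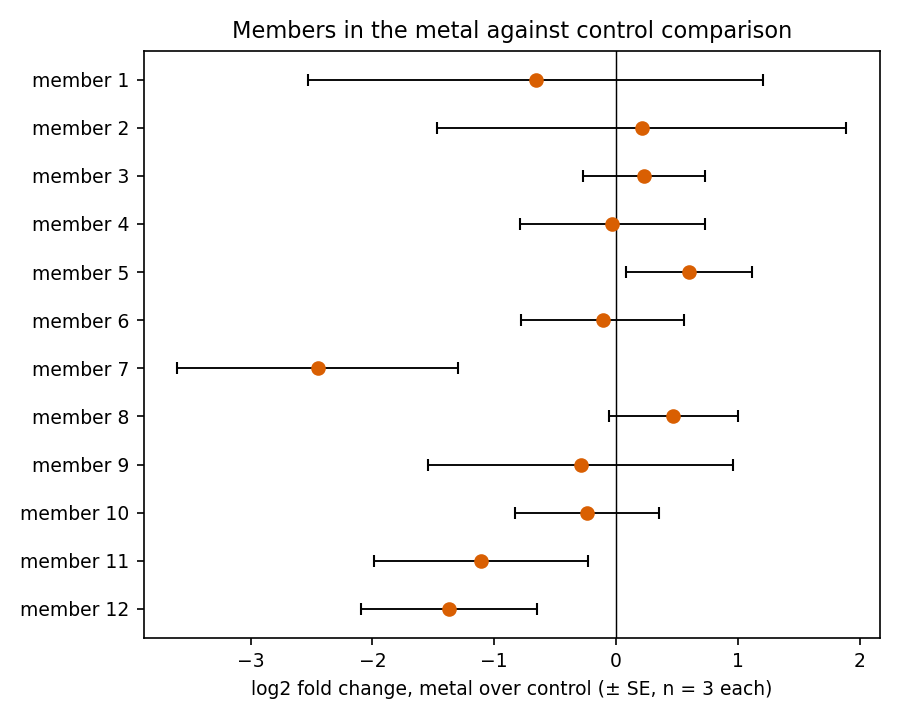
Log2 fold change of metal over control for each member from edgeR (horizontal axis, 3 libraries each), with bars of 1 standard error. The standard error was derived from the quasi-likelihood F statistic. The estimates run from -2.45 in member 7 to 0.60 in member 5, and the bars are widest in members 1 and 2.

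Because control 2 stood apart, the comparison was also made without it. Then 652 of 9935 features were called higher (6.56%) and 1009 lower (10.2%) in the metal libraries. Of the 12 members, 0 were called in either direction. The controls left were controls 1 and 3, which the rule required to differ in every member. Nothing about the members is therefore read from that count. The member nearest to the threshold was member 7, at -2.93 ± 0.98 on the log2 scale (SE; edgeR adjusted p = 0.0788). The rule itself, with control 2 left out of the mean, gave 13 genes, among them all 12 members.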

How the data were processed

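The authors deposited whole-number counts per gene and FPKM values, which scale counts for gene length and sequencing depth, for all 6 libraries; 0 columns of other samples were present. TopHat2 and DESeq are named in the submitters' processing notes. The counting program, genome build, annotation and strand setting: not given in the sources used here. Identifiers were matched to 10551 genes of RefSeq assembly ASM14961v1. CPM was computed from the deposited counts and the column sums, with a pseudocount of 1 on the log2 scale. The implied length of a gene is its count over its FPKM, scaled by the library total. Metal was compared with control by edgeR 4.0.16 in R 4.3.3 (filterByExpr, TMM, robust quasi-likelihood test, Benjamini-Hochberg adjustment over all features tested, threshold 0.05); DESeq2 1.42.0 was an alternative. The edgeR and rule scripts were tested on simulated data. The members and alternatives were chosen with earlier results of these data known. For printing, each direction's member of highest L was taken, and from the remaining members that of largest difference with 10 or more counts in every library; members, genes and libraries singled out otherwise were picked after their values were seen. Intervals and limits from counts cover counting error only.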

Additional observations from a re-analysis of the deposited data

How the results depend on the processing

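Membership moved with the settings of the rule. TMM scaling kept 11 of the 12 members and added 0, and a total without the 10 most abundant features kept all 12 and added 3. The 4 and 8 members higher in controls 1 and 3 became 8 and 8 with a pseudocount of 0.5 CPM and 8 and 9 with 0.1 CPM; each kept 11 of the 12. A highest L of 5 or more left 4 and 2, so the larger direction turned, and requiring each of the other 4 libraries to lie between left 2 and 6. The cause of these moves was not tested. Without the limit on L there were 5 and 11. log2(FPKM + 1) kept 9 of the 12. With a difference of 1.5 or more, 20 genes were higher in control 1 and 20 in control 3, with 1 run of 2 consecutive genes; with 3 or more, 0 and 4. Leaving a library out of the mean gave 4 genes higher in control 1 and 8 to 9 higher in control 3; controls 1 and 3 cannot be left out of a rule built on them.

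In the labelled comparison, edgeR called 0 features higher and 0 lower with RLE scaling, without a filter and with the replicate number as a block, and DESeq2 called 10 and 136; the cause of that difference was not tested. Without single libraries the counts ran from 0 to 652 higher and from 0 to 1009 lower, above 0 only without control 2. None of the 12 members was called in any of these fits. Since the rule chose the members by their values in these libraries, nothing is read from that. The log2 fold change of Aterreus0G088670 was 0.04 under the block, and without single libraries ran from -0.84 to 0.21, being above 0 without control 1 (0.21), control 2 (0.17), metal 1 (0.19) or metal 3 (0.12). Without single libraries Aterreus0G000640 ran from -1.22 to 1.13 and Aterreus0G088730 from -2.96 to 0.29, both above 0 only without control 3. Aterreus0G074250 ran from 0.16 without control 3 to 1.10 without control 1. Under the block, Aterreus0G088730 was at -0.97, Aterreus0G000640 at -0.32 and Aterreus0G074250 at 0.88. The replicate numbers were not treated as pairs: deviations of same-numbered libraries correlated at 0.067, 0.16 and 0.17, and those of other pairs at -0.29 to 0.23. At 25097838 counts, the smallest library, 3 counts are 0.12 CPM.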
